A study of Drosophila melanogaster with 8 samples.

Results

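The set examined here was made up of 6 Drosophila melanogaster genes of innate immunity: the antimicrobial peptide gene Drs (Drosomycin), the phagocytosis receptor gene eater, and the peptidoglycan recognition protein genes PGRP-LB, PGRP-LE, PGRP-SC1a and PGRP-SC1b. They were found by gene symbol in the platform annotation, which names 6793 genes, and none of its symbols began with Att, Cec or Dpt followed by a capital letter. The set was proposed with results of these data known, in which Drs had the smallest unadjusted p for the difference between the 2 time points. The values of the 6 genes are therefore a description and carry no test. Each of the first 4 genes had 2 spots of its own, and 2 further spots were annotated jointly to PGRP-SC1a and PGRP-SC1b and cannot be assigned to either.

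The study used heads of unmated Oregon-R wild-type males, frozen and pooled from several vials, and spotted cDNA arrays that set 2 dye-labelled samples against each other. Treated flies, 3 to 4 days old at the start, ate food with 8 mg/ml pentylenetetrazole (PTZ), a convulsant that blocks GABA-A receptors, for 7 days and then food with 16 mg/ml gabapentin (GBP), an anticonvulsant, for 3 days. Heads were taken at day 10, or at day 14 after 4 more days on normal food, and each array paired 1 treated pool with a parallel pool kept on normal food throughout. Each day had 4 arrays, called biological replicates in the labels, with treated RNA in Cy5 on replicates 1 and 2 and in Cy3 on replicates 3 and 4. The second drug is written ETH, without explanation, in the order of feeding on 3 of the 4 day 14 arrays, although their titles carry GBP.

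Flies meet microbes with secreted peptides, made largely by the fat body, and with circulating blood cells that engulf particles. Drosomycin is a mainly antifungal peptide and the usual readout of the Toll pathway. PGRP-LE senses DAP-type peptidoglycan, typical of Gram-negative bacteria, and feeds the IMD pathway, whereas PGRP-LB and the PGRP-SC1 proteins are amidases that cut peptidoglycan and dampen IMD signalling. Eater is a transmembrane receptor of blood cells that binds bacteria. The head holds fat body and blood cells as well as neurons, and with whole-head RNA fewer cells of a type and less RNA per cell cannot be told apart.

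Each deposited value is the log2 ratio between the channels of an array. Neither the numerator dye nor any turning of dye-swapped arrays is given in the labels, so no direction is settled. Values were centred on each array's median, which ran from -0.83 to 0.29 as deposited. They were then read as Cy5 over Cy3 with replicates 3 and 4 turned, so that a value above 0 stands for more signal in treated flies under that reading only. Means, medians and counts with the deposited signs kept, called unturned, are given for the members and for the list genes named below. Between 6628 and 19719 of the 27648 features had a value on an array, and signal over background was not analysed here. The 2 spots of a pair differed by a median of 0.117 to 0.243 log2 units, depending on the array. Photoreceptor markers, 4 of which were on the array, had 2 to 4 values on each of the 8 arrays, although a ratio carries no level.

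Drs was measured on 7 of the 8 arrays, more than any other member, and its ratio changed sign with the dye orientation at day 10. As deposited and before centring, its 2 spots averaged -2.03 on replicate 1, -0.87 on replicate 2 and 1.03 on replicate 4 of day 10, and replicate 3 had no value. The 2 arrays with treated RNA in Cy5 were thus below 0 and the 1 array with treated RNA in Cy3 above it. At day 14 the deposited averages were 1.43, -0.55, 0.33 and 0.03 on replicates 1 to 4. There the arrays of 1 orientation, replicates 1 and 2, lay on opposite sides of 0. The 2 Drs spots lay 0.018 to 0.163 log2 units apart, and on each of the 7 arrays that was less than the median over all pairs of spots.

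Centred and turned, Drs was at -1.20, -0.61 and -1.14 on day 10 replicates 1, 2 and 4, a mean log2 ratio of -0.98 ± 0.29 (SE, n = 3). All 3 values lay below 0. Of the 11312 genes and unnamed features measured on at least 3 arrays of day 10, 6.83% also lay below 0 on every measured array. Drs was chosen from the difference between the days, which these values enter, so nothing is read from its place among them. By absolute size the Drs mean ranked 49 of 11312. At day 14 Drs was at 1.14, -0.07, -0.38 and -0.23 on replicates 1 to 4, with a mean of 0.12 ± 0.23 (SE, n = 4). Replicate 1 alone lay above 0, and without it the day 14 mean was -0.23.

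The Drs mean was 1.10 ± 0.35 (SE, n = 7) log2 units higher at day 14 than at day 10, a difference that ranked 8 of 5187 by absolute size. The days did not overlap, since the highest day 10 array stood at -0.61 and the lowest day 14 array at -0.38, as they did not, in this direction, for 1.93% of the 5187. Drs was chosen from this contrast, and with deposited signs kept the days overlapped. Without day 14 replicate 1 the turned difference was 0.75. With deposited signs kept and all arrays used, the Drs mean at day 10 was -0.22 ± 0.39 (SE, n = 3). The day 14 mean was 0.42 ± 0.31 (SE, n = 4), and the 2 differed by 0.64 ± 0.46 (SE). The day 10 mean therefore depended on whether swapped arrays were turned, by more than the spread between arrays (SD 0.33). The difference between the days kept its sign under both readings. Both take replicates 1 and 2 as Cy5 over Cy3, and with the opposite numerator each of these signs would be reversed.

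**Figure D1:**
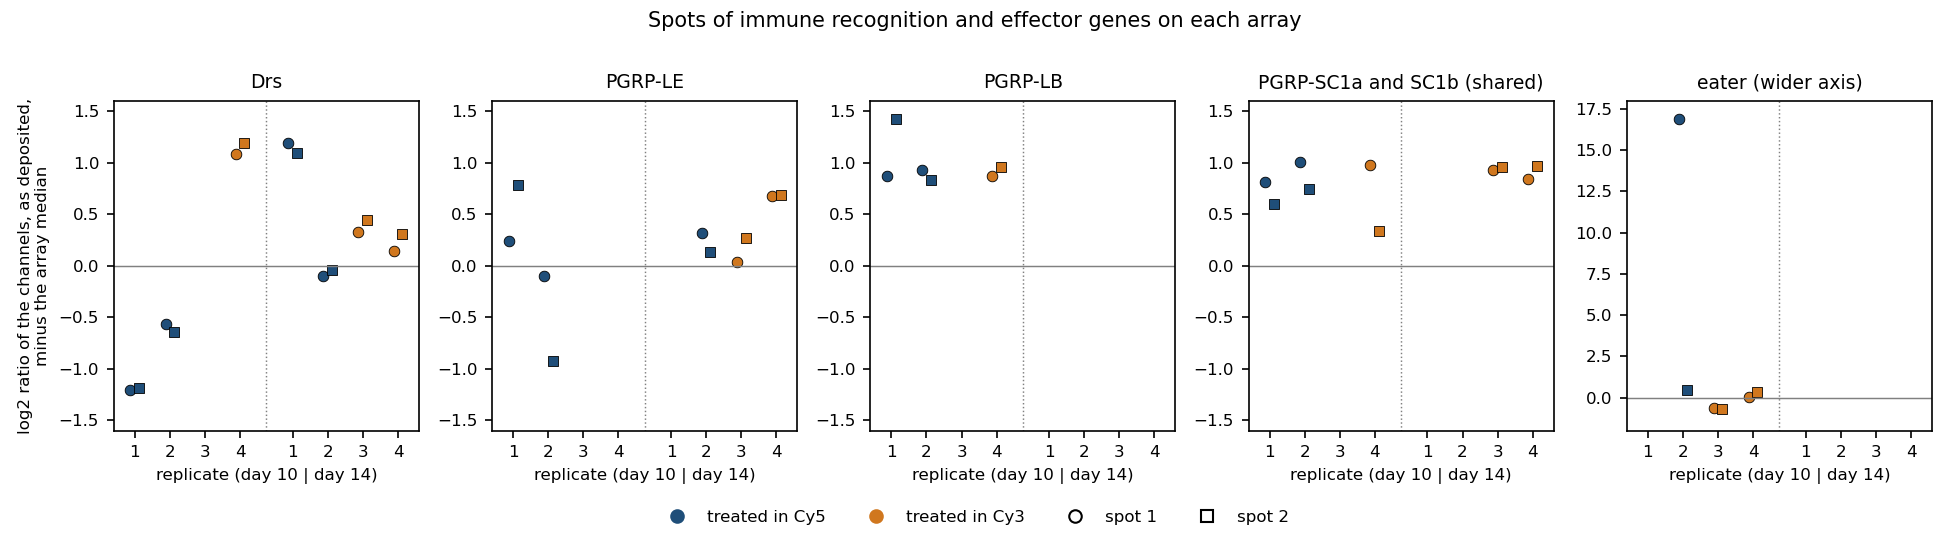
Each panel plots 1 gene, or the 2 PGRP-SC1 genes that share spots, with 1 point per spot and array, the replicate on the horizontal axis (day 10 left of the dotted line, day 14 right) and the deposited log2 ratio minus the array median on the vertical axis. Drs lies on opposite sides of 0 in the 2 dye orientations at day 10, PGRP-LB and the PGRP-SC1 spots lie above 0 on every array that measured them, and 1 eater spot stands far above its partner.

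PGRP-LB was measured on day 10 alone, on 3 arrays, and its ratio kept the same deposited sign in both dye orientations. Its deposited averages were 0.31, 0.62 and 0.80 on replicates 1, 2 and 4, or 1.15, 0.88 and 0.92 once centred. All 3 lay above their array's median, as did 18.3% of the 11312 genes and features over their measured arrays of day 10. Turning replicate 4 made its value -0.92, so the mean under that reading was 0.37 ± 0.43 (SE, n = 3). It was 1.01 without replicate 4 and -0.02 without replicate 1. The mean of the deposited, unturned values was 0.98.

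The spots shared by PGRP-SC1a and PGRP-SC1b showed the same kind of values. Their centred averages were 0.70, 0.88 and 0.66 on day 10 replicates 1, 2 and 4. Replicates 3 and 4 of day 14 gave 0.94 and 0.91. On every one of these 5 arrays the average lay above the array's median, whichever dye carried the treated RNA. At day 10, 18.3% of the 11312 genes and features did so on all their measured arrays. No such share was computed for day 14. After turning, replicate 4 of day 10 stood at -0.66 and the 2 day 14 arrays at -0.94 and -0.91. The day 10 means of the 2 spots were 0.28 ± 0.38 and 0.34 ± 0.25 (SE, n = 3 each). Leaving out 1 array gave -0.08 to 0.91 for the first spot and 0.13 to 0.67 for the second, and unturned they were 0.93 and 0.56. Day 14 had values from treated RNA in Cy3 only, so at that time the dye and the treatment cannot be told apart for these spots.

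For both sets of amidase spots, then, the 2 readings of the ratios gave different pictures. Over the 8 measurements the centred deposited averages over 2 spots of PGRP-LB and of PGRP-SC1 ran from 0.66 to 1.15. That is a narrow range beside that of the Drs averages. Single spots ran wider, from 0.34 for a PGRP-SC1 spot on day 10 replicate 4 to 1.42 for a PGRP-LB spot on day 10 replicate 1. When medians of long and then short runs of neighbouring features were subtracted in place of the array median, the turned day 10 means were 0.18 for PGRP-LB and 0.05 and 0.11 for the shared spots. The same subtraction with deposited signs kept gave 0.35, 0.42 and 0.05. A contribution of position on the array to these values was not tested.

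PGRP-LE had values on 2 arrays of day 10 and 3 of day 14 and had no sign shared by all of them under either reading. Centred averages were 0.51 and -0.51 on day 10 replicates 1 and 2, which share a dye orientation. Those 2 arrays lay equally far on either side of 0. At day 14 the turned values were 0.23, -0.15 and -0.68 on replicates 2, 3 and 4, with a mean of -0.20 ± 0.24 (SE, n = 3). With deposited signs kept the 3 centred values were 0.23, 0.15 and 0.68, all above 0, with a mean of 0.35 ± 0.21 (SE). The share of all genes and features above 0 in that way at day 14 was not computed. Without replicate 4 the turned mean was 0.04. The 2 PGRP-LE spots differed by 0.015 to 0.826 log2 units, and the wider gaps were on the 2 day 10 arrays.

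The extreme value of eater belonged to 1 spot on 1 array. On day 10 replicate 2 that spot had a deposited log2 ratio of 16.61 and its partner 0.179. On replicate 3 the 2 spots were at -0.55 and -0.60, and on replicate 4 at -0.10 and 0.22. Eater had no value on day 10 replicate 1 or at day 14. The average over spots and 3 arrays was 3.05 ± 1.70 (SE, n = 3), or 2.73 unturned. The turned mean was the largest in absolute size of all 11312 genes and features, and it was 0.31 ± 0.23 (SE, n = 3) with the extreme spot left out. Without it the centred, turned values had both signs, with replicate 3 at 0.66 and replicate 4 at -0.18. Over all arrays 28 of 115263 values exceeded 5 in absolute log2, and the eater spot was the only one among the members. Another feature, on day 14 replicate 4, had the identical value of 16.61. Whether 16.61 is a measured ratio was not tested, and the eater means that include it rest on that value.

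Across all genes and features limma's moderated test with Benjamini-Hochberg adjustment called 0 of 11312 at day 10, 0 of 6142 at day 14 and 0 of 5187 for the difference between the days. The background of calls was thus 0% in each. Of the members the fit held Drs, eater, PGRP-LB and the PGRP-SC1 spots at day 10, Drs and PGRP-LE at day 14, and Drs alone for the difference. None was called, and since the set was chosen with results known nothing is read from that. At an unadjusted p under 0.05 in limma's test the numbers over all genes and features were 481, 282 and 129 under the turned reading. With deposited signs kept they were 2498, 414 and 433, so they too depended on the reading.

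The wider immune system was read from 6 lists that left out the members: Toll, IMD and JAK-STAT pathways, other secreted effectors, phagocytosis and blood cells, and melanisation. The lists had 154 entries, and the array held 57 of their genes, 47 of which had enough values at day 10 and 26 at day 14. For IMD it held 13 genes from 27 entries, without imd, Dredd, Tak1, IKKbeta or Rel. For the effectors it held 6 from 44 and for JAK-STAT 3 from 18, so the lists were read in part only. None of the list genes with enough values passed limma's test in either direction on either day. At day 10, 24 means lay above 0 and 23 below, with a median of 0.02 beside 0.03 over all genes and features. At day 14, 8 lay above and 18 below, with a median of -0.07 beside 0.01. Without turning, 8 of the 26 day 14 means lay below 0. Drsl5, Tep4, spz, Pli, kra, scny, casp and drpr are named below because they had 1 sign on every measured array. That shared sign follows from the choice. Turned, 4 of 47 list genes lay below 0 on every measured array at day 10 and 3 of 26 at day 14. The shares over all genes and features were 6.83% and 12.2%. Above 0 on every measured array was 1 list gene on each day.

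The secreted effectors were the list whose genes with enough values shared a sign on both days under the turned reading. LysE had a value on 1 array only, 0.56 turned on day 10 replicate 4 and below 0 unturned. It is not in the counts that follow. At day 10, 5 of 5 means lay below 0, with a median of -0.20, and at day 14, 4 of 4, with a median of -0.16. Over all genes and features 44.6% of means lay below 0 at day 10 and 48.9% at day 14. With deposited signs kept, 1 of the 5 and 1 of the 4 lay below 0, and the medians were 0.06 and 0.13. After subtraction of neighbouring medians they were -0.13 and -0.09.

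Drsl5, a paralogue of Drs that encodes a drosomycin-like peptide, lay below 0 on each of the 7 arrays that measured it under the turned reading. Its values were -0.62, -0.40 and -0.40 on day 10 replicates 2 to 4. Day 14 replicates 1 to 4 gave -0.06, -0.08, -0.60 and -0.46. Replicates 1 and 2 of day 14, with treated RNA in Cy5, were the ones nearest 0. The means were -0.47 ± 0.17 (SE, n = 3) and -0.30 ± 0.14 (SE, n = 4), neither of which passed (limma adjusted p = 0.995 and 0.979). All measured arrays of a day lay below 0 for 6.83% of genes and features at day 10 and 12.2% at day 14. Unturned, the means were 0.06 and 0.23. On day 14 replicate 1, where Drs stood at 1.14, Drsl5 stood at -0.06.

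Tep4, which encodes a secreted thioester-containing protein, was below 0 on all 4 arrays that measured it under the turned reading and on 2 of the 4 unturned. The turned values were -0.12, -0.27 and -0.74 on day 10 replicates 1, 2 and 4 and -0.55 on replicate 4 of day 14. Its day 10 mean was -0.38 ± 0.21 (SE, n = 3; limma adjusted p = 0.995), and it was 0.12 unturned and 0.09, turned, after subtraction of neighbouring medians. The other effectors with enough values were 3 bomanin genes, BomBc2, BomT2 and BomT3, short secreted peptides induced through Toll. They are named here after their values were seen. BomT2 had means of -0.20 ± 0.13 and -0.14 ± 0.12 (SE, n = 4 each) on the 2 days and lay below 0 on 6 of 8 arrays turned and 2 of 8 unturned. BomBc2 did so on 5 of 7 turned and 1 of 7 unturned, and BomT3 on 4 of 7 turned and 6 of 7 unturned. On day 14 replicate 1 BomT2 was at -0.08 and BomT3 at -0.52, so the high Drs value there lay above those of the 3 other effectors measured on that array.

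**Figure D2:**
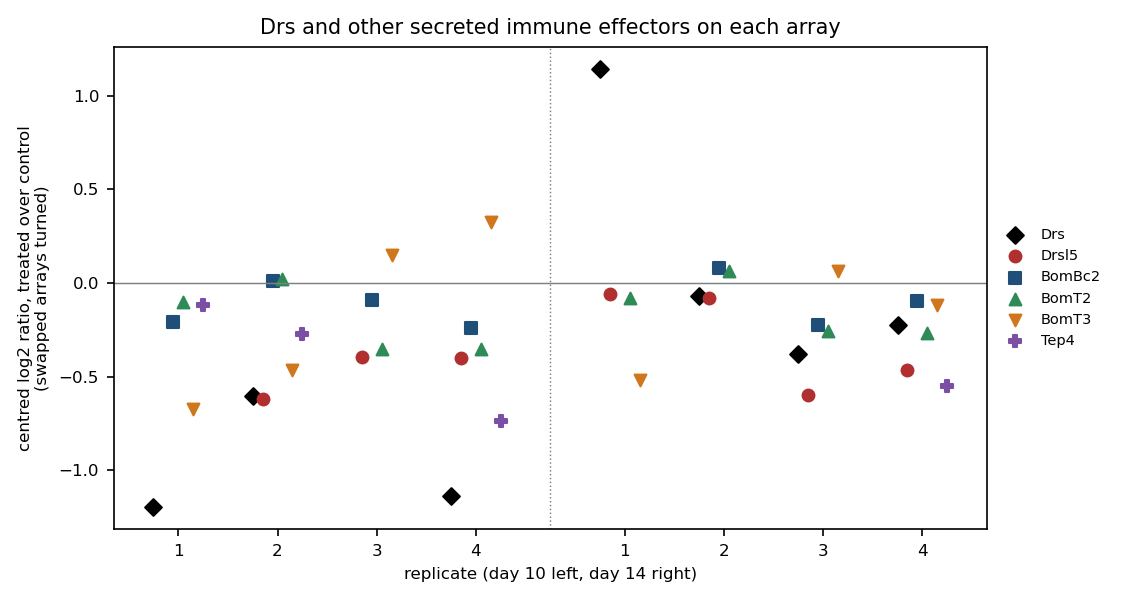
Points show the centred log2 ratio of Drs and 5 other secreted effectors on each array, with replicates 3 and 4 of each day turned (day 10 left of the dotted line, day 14 right). Drs at 1.14 on day 14 replicate 1 lies above all other points, and Drsl5 lies below 0 on each of its 7 arrays.

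Genes of the Toll pathway, which acts upstream of Drs, had means on both sides of 0. The list had 15 measured genes at day 10 and 10 at day 14, with means from -0.41 to 0.14 and from -0.31 to 0.15, and 8 and 6 of them below 0 under the turned reading, against 7 and 3 unturned. The gene of the Toll ligand, spz, was at -0.43, -0.10, -0.23 and -0.04 on day 10 replicates 1 to 4, a mean of -0.20 ± 0.15 (SE, n = 4; limma adjusted p = 0.995). All 4 arrays were below 0, and with deposited signs kept the mean was -0.06. At day 14 Pli, the Pellino gene, had -0.19 ± 0.15 (SE, n = 3; limma adjusted p = 0.979), or 0.06 with deposited signs kept. The list also held kra, whose place in the Toll pathway was not checked here. It had -0.31 ± 0.14 (SE, n = 4; limma adjusted p = 0.979), the lowest mean of the list at day 14, or 0.12 with deposited signs kept. Pli and kra both lay below 0 on every measured array under the turned reading, as the choice of named genes required.

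The IMD list, the pathway that PGRP-LE feeds and the amidases dampen, had 11 measured genes at day 10 with a turned median of 0.09 and 6 at day 14 with -0.03, or 0.16 and 0.10 unturned. The deubiquitinase gene scny was above 0 on all 3 arrays that measured it, at 0.18, 0.44 and 1.08 on day 10 replicates 1, 2 and 4, a mean of 0.56 ± 0.24 (SE, n = 3; limma adjusted p = 0.995). It was 0.24 after subtraction of neighbouring medians and -0.15 with deposited signs kept, and 6.12% of genes and features lay above 0 on every measured array of day 10. casp, the gene of the IMD inhibitor Caspar, lay between 0.05 and 0.12 on the 4 day 14 arrays, with a mean of 0.09 ± 0.12 (SE, n = 4; limma adjusted p = 0.979), or -0.03 unturned. Every measured day 14 array lay above 0 for 10.8% of genes and features under the turned reading.

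The phagocytosis and blood cell list, to which eater is closest in function, had 11 measured genes at day 10 with a turned median of 0.03 and 4 at day 14 with -0.02, or 0.02 and 0.03 unturned. The engulfment receptor gene drpr was at -0.29, -0.07 and -0.42 on day 10 replicates 1, 2 and 4, a mean of -0.26 ± 0.22 (SE, n = 3; limma adjusted p = 0.995), and 0.02 with deposited signs kept. The melanisation list had medians of 0.07 over 4 genes and -0.04 over 2, or -0.0025 and -0.0072 unturned. Of the JAK-STAT list, Su(var)2-10 alone had enough values, at day 10, with 0.37 ± 0.48 (SE, n = 3), or 1.04 unturned.

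**Figure D3:**
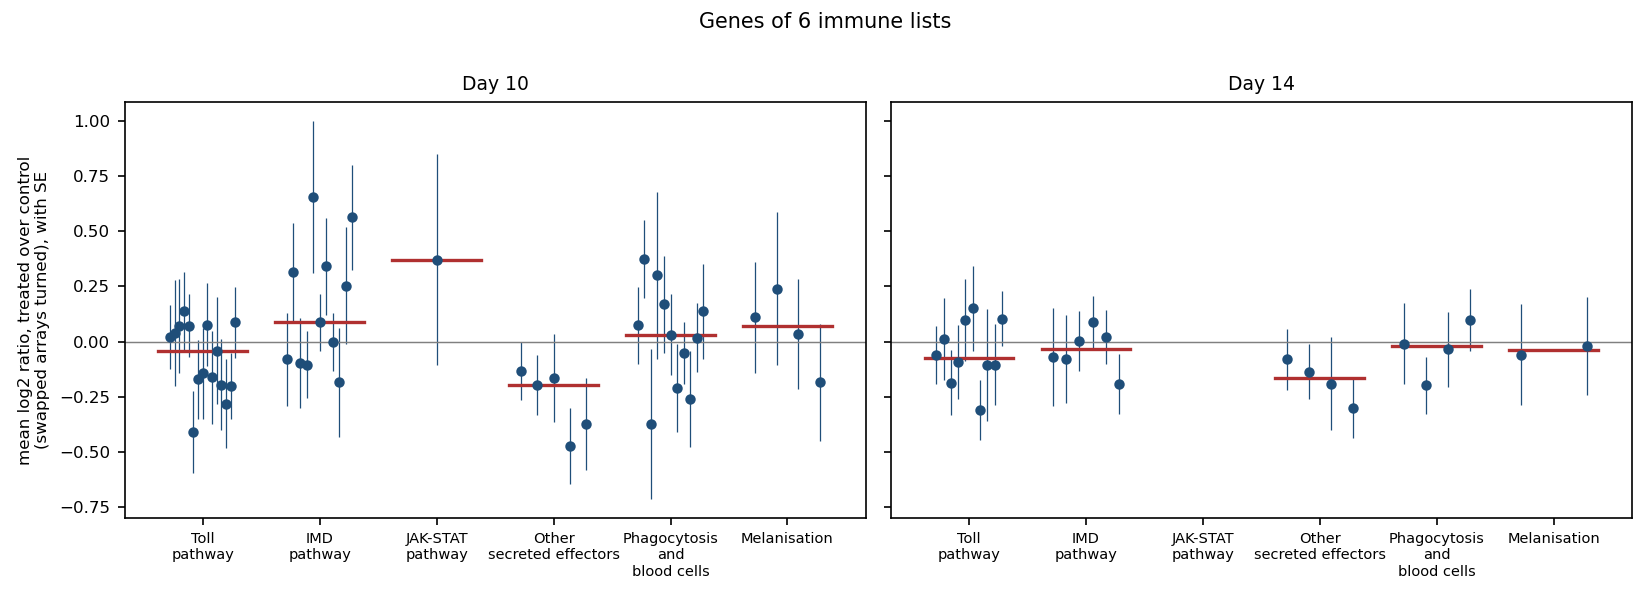
Each point is a gene's mean log2 ratio of treated over control with its standard error, swapped arrays turned, by list and day, and red lines are list medians. The plotted secreted effectors all lie below 0 on both days. The other lists that have more than 1 gene have means on both sides of 0 at day 10.

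Markers of fat body and blood cells differed between arrays, as did those of other tissues. All 9 fat body markers were on the array: apolpp, Lsp2, Lsd-1, bmm, Fbp1, FASN1, Yp1, Yp2 and Yp3. Whether each of them marks fat body in heads of adult males was not checked here. They had 3 to 8 values each time, and their median turned ratio was -0.09, 0.09, -0.15 and -0.47 on day 10 replicates 1 to 4. The day 14 replicates gave 0.17, 0.07, -0.33 and -0.17. Unturned, the 4 arrays with treated RNA in Cy3 had fat body medians of 0.15, 0.47, 0.33 and 0.17, the highest on day 10 replicate 4. Of 10 blood cell markers 5 were on the array, with 1 to 4 values each time, and their medians spanned -0.44 to 0.17 on the first day and -0.27 to 0.06 on the second. Photoreceptor medians spanned a wider range, 0.38, 0.48, -0.17 and -0.29 on the day 10 replicates and 0.02, 0.22, -0.59 and -0.69 on those of day 14, all above 0 unturned. The part of these tissues in the Drs and eater values was not tested.

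Among 1152 named genes measured on the same 7 arrays as Drs, those with the most similar turned ratios were mRpS34, with a Pearson r of 0.97, Mipp1 with 0.96, CG6834 with 0.96, CG14820 with 0.94 and PAN3 with 0.94. The median r of all 1152 was -0.04, and 6 exceeded 0.9. The 7 points share arrays and their offsets, 2 dye orientations and 2 days, and the correlations describe these arrays only. Unturned, r was 0.98 for mRpS34, 0.90 for Mipp1, 0.67 for CG6834, 0.64 for CG14820 and 0.18 for PAN3, so the order rests in part on the turned reading. Leaving out the 2 arrays farthest from the Drs median, replicate 1 of both days, gave 0.98 for mRpS34, 0.93 for Mipp1 and 0.76 to 0.81 for the others. After subtraction of neighbouring medians r was 0.70 for mRpS34, 0.88 for Mipp1, 0.93 for CG6834, 0.56 for CG14820 and 0.39 for PAN3. Eater was measured on too few arrays for the same comparison.

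The difference of Drs between the days was above 0 under each of the 19 alternatives that gave one, and ran from 0.53 to 1.44 log2 units. Its day 10 mean lay below 0 under all 20 that yielded it, from -1.31 to -0.22, while its day 14 mean ran from -0.23 to 0.42. These alternatives reuse the same arrays and the same numerator dye and are no separate evidence. With the opposite numerator each of these signs would be reversed.

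**Figure D4:**
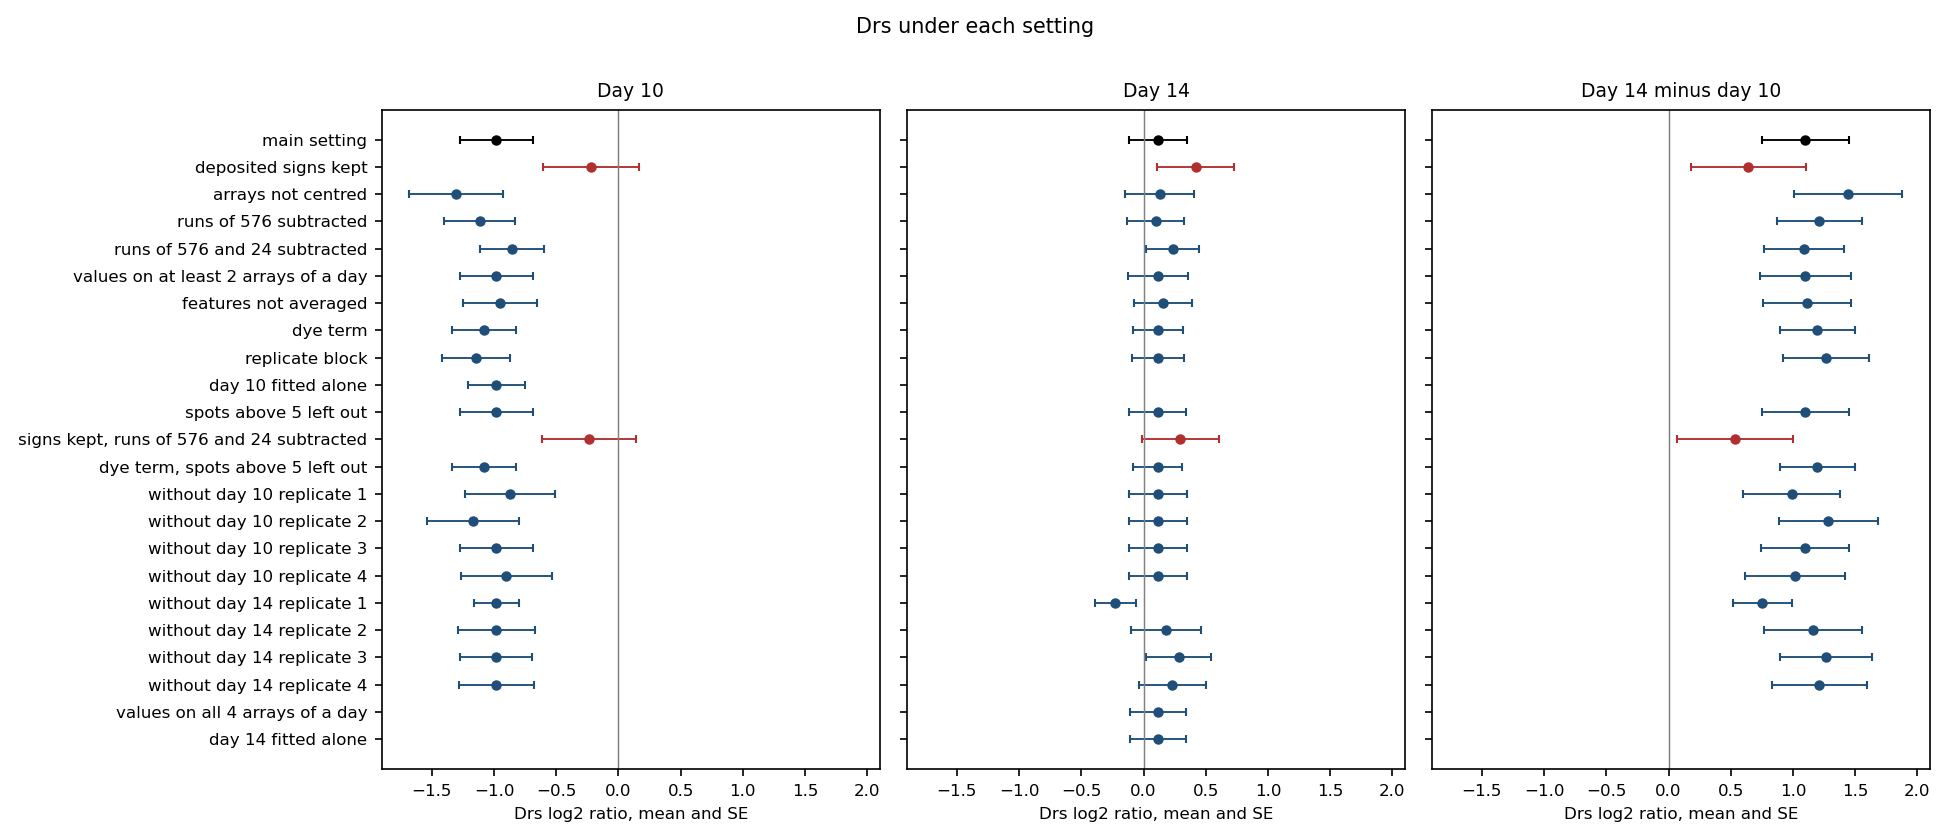
Points give the mean log2 ratio of Drs, and its difference between days, with standard errors, under the main setting (black), alternatives with swapped arrays turned (blue) and alternatives with deposited signs kept (red). The day 10 means lie between -1.31 and -0.22 and the differences between 0.53 and 1.44.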

How the data were processed

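Amplified RNA carrying Cy3 or Cy5 was, per the labels' protocols, hybridised to spotted cDNA arrays and quantified in GenePix Pro, and the authors normalized ratios per array in Acuity and removed weak, saturated or irregular spots, which leaves blanks. The deposited values are log2 ratios; base 2 follows from the values. Depth has no meaning here, and the number of arrays limits the precision. Features with 1 platform symbol were renamed through RefSeq gene identifiers (14894 of 15116 matched, 222 kept the platform symbol), and 102 with several symbols and 12430 with none stayed single. Each array was centred on its median, arrays with treated RNA in Cy3 were turned, and features of a gene were averaged. One limma fit (version 3.58.1, R 4.3.3) of the 8 arrays gave each day its own mean, for every gene or feature that 3 or more arrays of that day had measured, after a check on simulated data; adjusted p-values (Benjamini-Hochberg, threshold 0.05) and standard errors come from that fit. Named list genes are, per list, day and direction, up to 2 with the smallest p among those with 1 sign on every measured array. Members and lists were chosen with earlier results of these data known. Alternatives kept the deposited signs, changed the centring, the filter, the averaging or the covariates, fitted each day alone or left out an array; 3 that left out extreme spots or combined choices were added after seeing the data. Nothing shows whether replicates shared vials, so p-values measure the spread between these pools.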

Additional observations from a re-analysis of the deposited data

How the results depend on the processing

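The number of calls was 0 under all alternatives but 2. A dye term gave 1 call at day 10, eater at 4.45, and 0 once its extreme spot was left out. Since eater is a member, nothing is read from that call. Deposited signs kept gave 3 at day 14, CG1806 and 2 unnamed features. Leaving out any 1 array gave 0 calls in each comparison. The Drs mean at day 10, -0.98, was -0.22 with deposited signs kept, -0.24 with those signs and subtraction of long and short run medians, -1.31 without centring and -1.17 to -0.87 leaving out 1 array. At day 14 it was -0.23 to 0.28 and the difference 0.75 to 1.28 leaving out 1 array. The median over the immune lists at day 10, 0.02, was -0.29 without centring, -0.049 with long run medians subtracted, -0.047 with the replicate block and -0.050 to 0.018 leaving out 1 array. At day 14, -0.07, it was 0.057 with deposited signs kept, -0.014 with long and short run medians subtracted, 0.039 with both, and -0.10 to -0.032 leaving out 1 array. The median difference, 0.01, was 0.26 without centring and -0.01 to 0.06 leaving out 1 array. Without centring the median over all genes and features was itself -0.25 at day 10 and 0.27 for the difference; the cause of the other shifts was not tested. Arrays with the same replicate number share that number and a dye orientation, and the labels name no shared litter or batch. Their deviations correlated at 0.03 to 0.22 over the 4 pairs, and the replicate block gave 0 calls, with Drs at -1.15 at day 10 and a difference of 1.26. Requiring values on all 4 arrays left Drs out at day 10. Each member was measured on 3 to 7 arrays, which limits the precision of its values.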

Other observations

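NimC1, a phagocytosis receptor gene of blood cells, had 4 spots in pairs of neighbouring features. On day 10 replicate 1 they had deposited log2 ratios of -3.13 and -5.97 in 1 pair and -0.90 and 0.24 in the other. The NimC1 day 10 mean was -0.37 ± 0.34 (SE, n = 4), and -0.08 ± 0.23 without the spot beyond 5 in absolute log2. Its neighbour at -3.13 was kept in that second mean. Ddc, the dopa decarboxylase gene that serves melanisation and dopamine synthesis, had 1 of 4 measured spots at -5.11 on the same array and the others between -0.94 and -0.66. Its day 10 mean was 0.11 ± 0.25 (SE, n = 4), and 0.38 ± 0.14 without that spot.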
